A study of Homo sapiens with 12 samples.

Results

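The 34 p53 target genes described here are genes that the transcription factor p53 is known to bind and switch on, and they were taken from the deposited expression table by their listed symbols. All 34 were found among its 35587 symbols, and all 34 were among the 13299 genes measured well enough to be tested. The cells were TeloHAEC, endothelial cells of the human aorta that divide without limit because they carry telomerase, and their RNA was taken after 24 h on culture plastic coated with DLL4 or with IgG. DLL4 is a ligand of Notch receptors, and the IgG coating was its control, both at 2.5 mg/mL in the coating solution per the labels.

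There were 6 groups of 2 libraries. TKO cells had been given Cas9 and a guide against TSPAN14, which encodes a tetraspanin partner of the Notch-cleaving protease ADAM10, and were plated on DLL4 or on IgG. NKO cells had been given Cas9 and a guide against NOTCH1 and were plated on DLL4 or on IgG. NT cells, the control line, which the labels call wild type, were plated on DLL4 or on IgG. All lines carry the immortalisation of TeloHAEC and were kept at the same passage. Each targeted gene is represented by 1 line, and the labels do not say whether a line is a clone or a pool, so the targeted gene and any other difference between the lines cannot be told apart.

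Values are TPM, an abundance scaled per transcript length and to a common total in every library. Read numbers cannot be recovered from TPM, and the depth behind the values is unknown. Libraries of a group are labelled as biological replicates, with nothing said of separate cultures, so p-values measure the spread between these libraries. Differences are given on the log2(TPM + 1) scale with their standard error (SE), which understates the change of genes at a few TPM. They were tested with limma, which pools the spread of the 12 libraries, and p-values were adjusted by the Benjamini-Hochberg method over all 13299 genes, with a threshold of 0.05. A gene is said below to have risen or fallen where its adjusted p is under that threshold. For 1 gene alone, exact permutation of 2 libraries against 2 gives a two-sided p of 0.333 at the least.

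In unstressed cells p53 is kept scarce by MDM2, a ubiquitin ligase that marks it for destruction and is itself made from a p53 target gene. When p53 is stabilised, for instance after DNA damage, it binds paired copies of a short palindrome in DNA and raises genes that halt division, repair DNA, trigger apoptosis, adjust metabolism and act back on p53 itself. In endothelial cells p53 is also known for its part in senescence. Many of its targets answer to other transcription factors as well, so the level of a target is not by itself a measure of p53.

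The p53 binding sequences near the start sites of the target genes are shown because p53 acts on its direct targets by binding such sequences. Sequence farther from the start sites was not searched, so a gene without a match here can still be a direct target. RefSeq promoter windows (GRCh38.p14, 250 bases before to 50 after a start site) were found for 27 of the 34 genes, and they were searched for the p53 response element, here a pair of 10-base half-sites 0 to 13 bases apart with at most 2 mismatches. The central C and G of each half-site had to be present. The element reads alike on both strands. It was present in the windows of 5 of the 27 genes, or 18.5%, against 989 of 27305 genes, or 3.62%, across all windows of the same length. These 5 are MDM2, DDB2, FAS, AEN and FDXR, and the capitals below mark the element with any spacer.
MDM2: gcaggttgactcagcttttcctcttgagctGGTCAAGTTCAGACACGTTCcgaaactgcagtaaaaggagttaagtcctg
DDB2: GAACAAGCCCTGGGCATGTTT
FAS: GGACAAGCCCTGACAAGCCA
AEN: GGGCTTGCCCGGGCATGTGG
FDXR: GGGCGGGCCCGGGCAGGAGCGGGCTTGCCC

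The stretch of MDM2 lies at chr12:68808893-68808972 on the plus strand, inside the gene and ahead of its internal promoter, with the element at -94 to -75 and at -101 to -82 from the 2 start sites that RefSeq gives there. It holds 2 mismatches. The DDB2 element, at chr11:47214979-47214999 on the plus strand, had no mismatch, has a spacer of 1 base and lies within an exon at 6 to 26 bases after the start. FAS has its element at chr10:88991309-88991328 on the plus strand, within annotated exons of FAS and of the gene ACTA2 on the opposite strand. The AEN element lies at chr15:88621306-88621325 on the plus strand and the FDXR element, with a spacer of 10 bases, at chr17:74872996-74873025 on the minus strand. Each lies within an annotated exon of its gene. The letters TGGGAA, the core that the Notch partner RBPJ binds, were searched on both strands too and stood in the windows of 8 of the 27 genes (29.6%), against 28.1% of all genes. PLK2, described below, was among the 8, with TGGGAA at -160 to -155 from the RefSeq start, within an annotated exon of PLK2. No window was at hand for TP53INP1, RRM2B, PHLDA3, TNFRSF10B, TNFRSF10C, TNFRSF10D and GADD45A.

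Across the series both targeted genes were still transcribed, and TSPAN14 was lower in TKO than in NT cells by 0.57 on IgG and 0.68 on DLL4 (limma adjusted p = 0.0015 and 0.00039), while NOTCH1 was lower in NKO than in NT cells by 0.61 on DLL4 (adjusted p = 0.022) and differed by -0.10 on IgG (adjusted p = 0.72). Short insertions or deletions need not change the RNA level, so RNA checks these labels only in part. All 10 endothelial markers were tested, at a summed 2149 to 2548 TPM per library. Markers of smooth muscle (0 of 5 tested, summed 0.815 to 1.68 TPM) and fibroblasts (0 of 5, 1.11 to 2.28 TPM) were near 0, while KRT8 alone of the epithelial list (37.4 to 142 TPM, with KRT5 and KRT14 at 0) and CD14 alone of the leukocyte list (0.0423 to 9.65 TPM) were tested. One entry, KPNA2P2, took between 2734 and 54829.6 TPM of a library, and leaving it out is among the alternative settings. RNA was taken from whole cultures, so fewer cells making a transcript and less of it per cell cannot be told apart.

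The 34 genes spanned a wide range of levels, with means over the 12 libraries between 1.79 TPM (CYFIP2) and 325 TPM (BAX) and a median of 26.7 TPM, against 14.8 TPM for all genes tested. Their spread between libraries of a group was like that of other genes, with a median SD of 0.15 on the log2 scale against 0.14. TKO cells on IgG had the lowest mean of the 6 groups for 15 of the 34 genes (44.1%), against 19.5% of all genes tested. NT cells on DLL4 had the highest mean for 11, and NT cells on IgG for 0, against 18.7% and 12.7% of all genes. The median of the 34 genes, each centred on its own mean, was lowest in the TKO libraries on IgG (-0.30 and -0.17) and highest in 1 NT library on DLL4 (0.18), while the medians of all genes lay between -0.09 and 0.08.

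**Figure D1:**
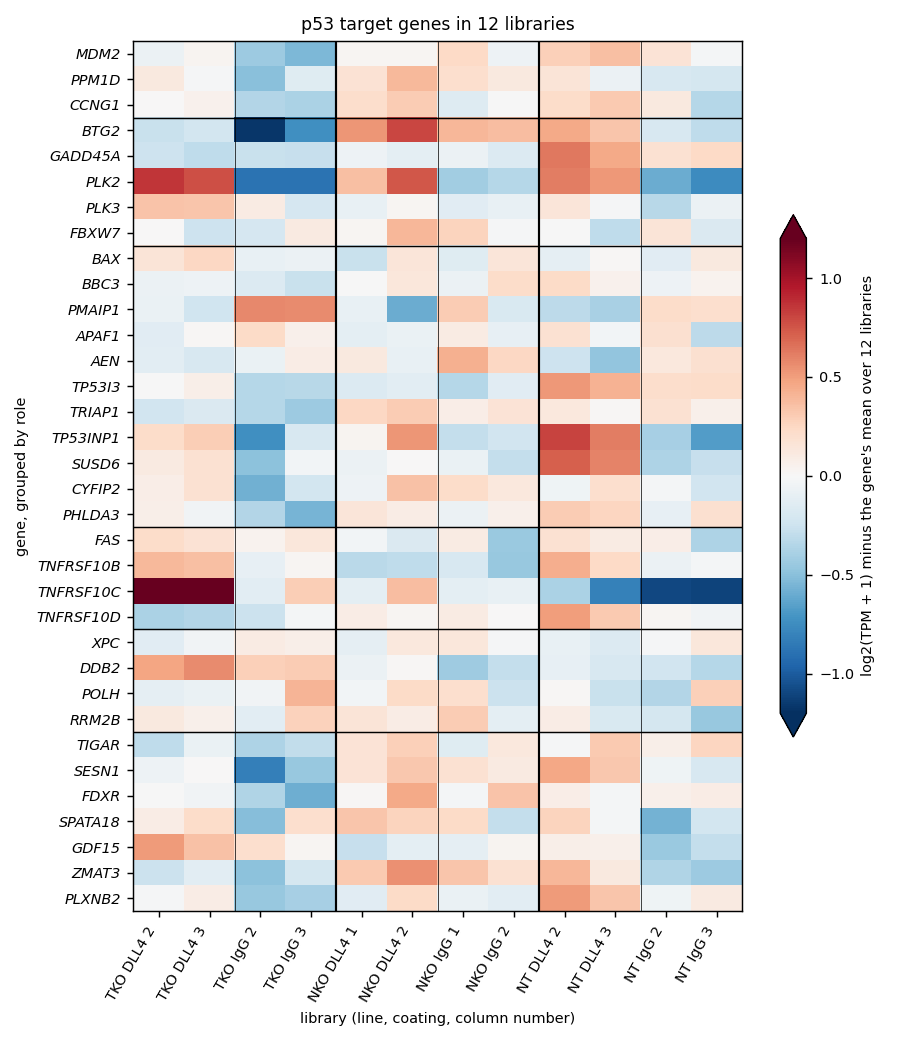
Level of each of the 34 p53 target genes (rows, grouped by role) in each of the 12 libraries (columns), as log2(TPM + 1) minus the gene's mean over the libraries; red is above and blue below the mean. Most rows are blue in the TKO libraries on IgG, and the row of TNFRSF10C is darkest red in the TKO libraries on DLL4.

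On DLL4, more p53 target genes were higher than lower in every line. In TKO cells 9 of the 34 genes rose and 1 fell, where 4.11% and 2.41% of all genes tested did so. The genes that rose were PLK2, TNFRSF10C, BTG2, SESN1, MDM2, PHLDA3, PLXNB2, TNFRSF10B and TP53I3, and PMAIP1 fell. In NKO cells only PLK2 rose and 0 fell, where 0.511% and 0.271% of all genes were called. At an unadjusted p under 0.05 there were 6 of the 34 genes, against 1221 of all 13299. In NT cells 10 genes rose and 1 fell, against 7.68% and 8.34% of all genes: TP53INP1, PLK2, SUSD6, ZMAT3, BTG2, SESN1, GDF15, TNFRSF10D, TNFRSF10B and GADD45A rose, and AEN fell. The median difference of the 34 genes was 0.31 in TKO, 0.09 in NKO and 0.26 in NT cells, against 0.01 for all genes in each line. Averaged over the lines, 16 of the 34 genes were higher on DLL4 and 2 lower (AEN and PMAIP1), against 10.6% and 8.72% of all genes, with a median of 0.22. In that average the DLL4 and IgG libraries overlapped for all but PLK2 and TP53INP1, and the average sets lines of different levels together.

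These counts depend on single libraries. Of the 10 calls in TKO cells, 3 and 4 held without the IgG libraries 2 and 3, with 1 and 2 other genes newly called, and 2 held without either DLL4 library (PLK2 and TNFRSF10C). Of the 11 calls in NT cells, 4 held without either IgG library, with CCNG1 newly called without library 2, and 4 and 7 held without the DLL4 libraries 2 and 3. PLK2, SUSD6 and TP53INP1 were called in NT cells without each of these libraries, and PLK2 in NKO cells. Of the 18 calls of the average over lines, 14 to 17 held.

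**Figure D2:**
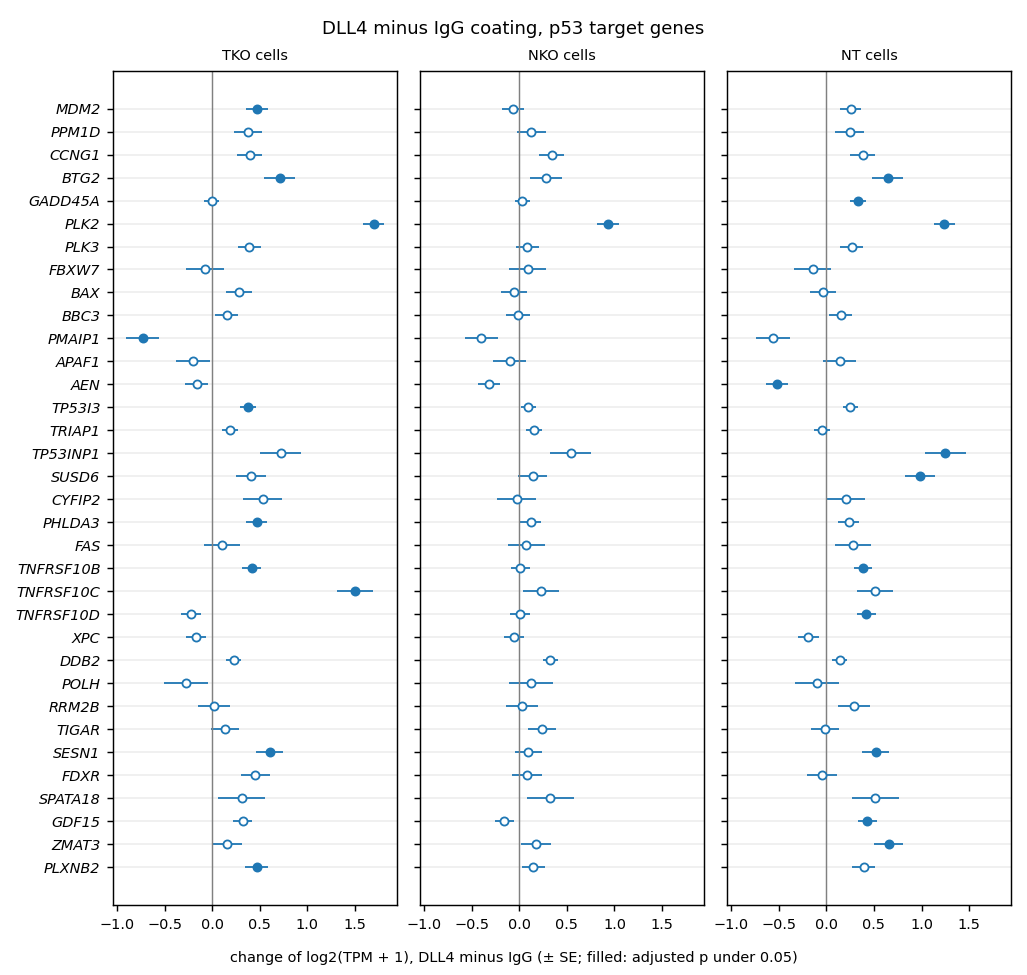
Difference between DLL4 and IgG in TKO, NKO and NT cells for each of the 34 genes, on the log2(TPM + 1) scale with its SE; filled points have a limma adjusted p under 0.05. PLK2 is filled in each of the 3 panels, and TNFRSF10C stands at 1.50 in TKO cells.

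Set against NT cells, TKO cells had more p53 target genes called lower than called higher. On IgG 3 of the 34 genes were higher (TNFRSF10C, DDB2 and GDF15) and 10 lower (BTG2, MDM2, TP53I3, FDXR, SESN1, TRIAP1, PHLDA3, TIGAR, GADD45A and PLXNB2), where 15.2% of all genes were higher and 12.4% lower. On DLL4 the same 3 genes were higher and 9 were lower, against 16.1% and 10.5% of all genes. MDM2, TP53I3, SESN1, BTG2, GADD45A, TRIAP1 and PLXNB2 were lower on both coatings, TNFRSF10D and SUSD6 were called lower on DLL4, and FDXR, PHLDA3 and TIGAR were called lower on IgG. By sign alone, 19 of the 34 genes were lower and 15 higher on IgG, and 17 were lower and 17 higher on DLL4. Of all 13299 genes, 6075 were lower and 7176 higher on IgG, and 5990 were lower and 7255 higher on DLL4. The median of the 34 genes was -0.10 on IgG and -0.02 on DLL4, against 0.04 and 0.03 for all genes. Of the 12 calls on DLL4, 5 and 6 held without TKO libraries 2 and 3, and 5 and 6 without NT libraries 2 and 3. Of the 13 calls on IgG, 9 held without either TKO library, and 10 and 8 without NT libraries 2 and 3.

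NKO cells differed from the same NT libraries at fewer p53 target genes than TKO cells did, and at fewer of all genes tested. Of all genes, 1418 were called on IgG and 2758 on DLL4, against 3666 and 3543 for TKO cells. On IgG 3 of the 34 genes were higher (TNFRSF10C, ZMAT3 and BTG2) and 2 lower (TP53I3 and GADD45A), against 4.92% and 5.74% of all genes. On DLL4 2 were higher (TNFRSF10C and AEN) and 6 lower (SUSD6, TNFRSF10B, GADD45A, TP53I3, PLXNB2 and TNFRSF10D), against 11.4% and 9.31% of all genes. The medians of the 34 genes were 0.07 and -0.01, against 0.06 for all genes on both coatings. Of the 5 calls on IgG, 2 held without either NT library, 2 without NKO library 1 and 3 without NKO library 2. Of the 8 calls on DLL4, 4 held without NKO library 1 and 5 without each of the other libraries.

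**Figure D3:**
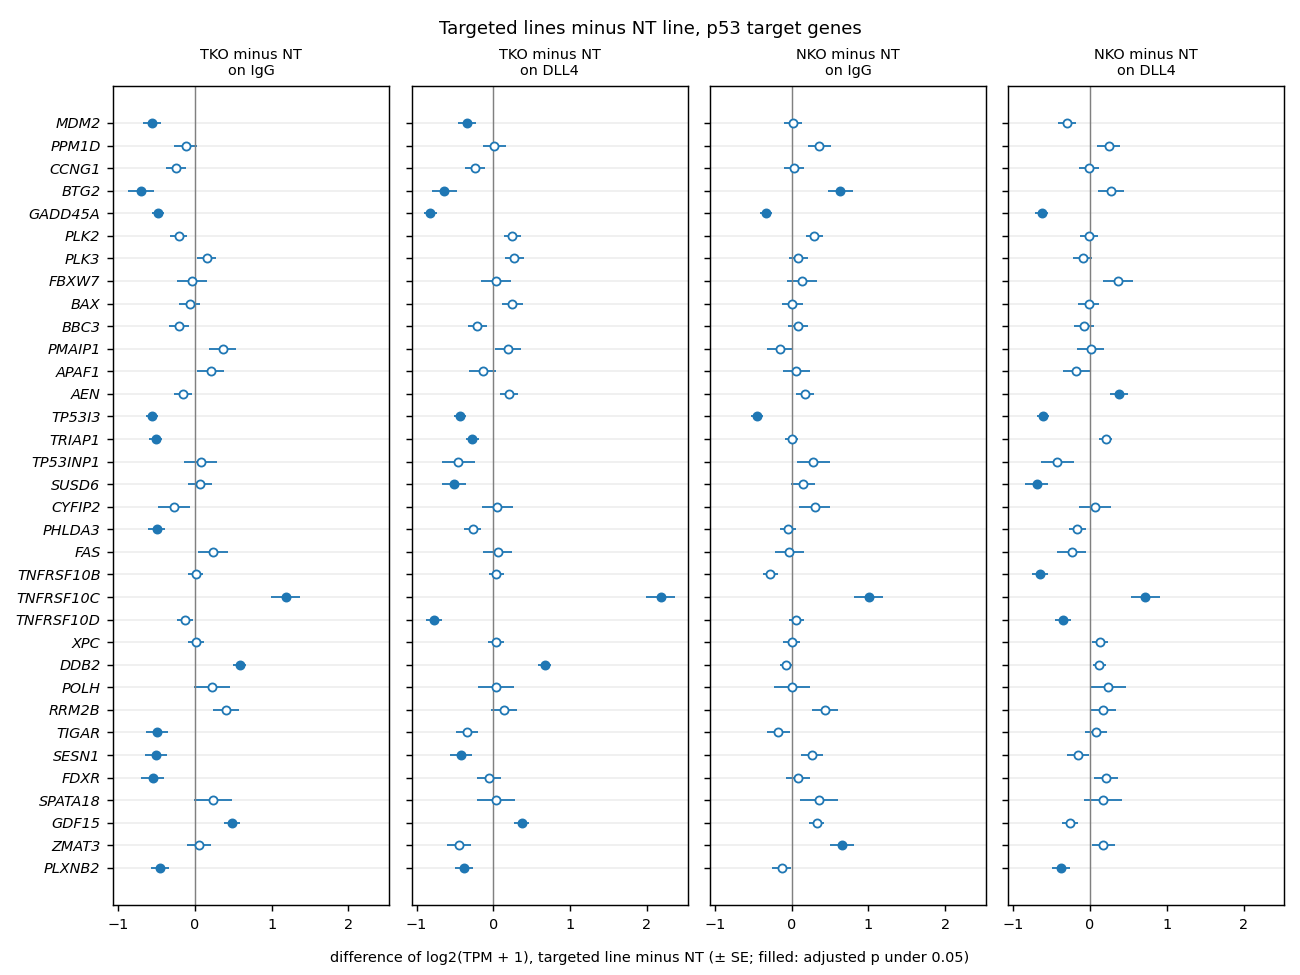
Difference of TKO and of NKO cells from NT cells on IgG and on DLL4 for each of the 34 genes, on the log2(TPM + 1) scale with its SE; filled points have a limma adjusted p under 0.05. TNFRSF10C lies to the right and TP53I3 and GADD45A to the left of 0 in all 4 panels, all filled; the panels of a coating share the NT libraries.

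Among the genes that act back on p53, MDM2 was lower in TKO cells. MDM2 had 26.1 and 28.2 TPM in TKO cells on DLL4 against 20.1 and 18.6 TPM on IgG. In NKO cells it was at 28.0 and 27.9 TPM on DLL4 against 32.5 and 26.3 TPM on IgG. In NT cells it was at 33.7 and 35.6 TPM on DLL4 against 30.96 and 27.0 TPM on IgG. The TKO libraries on IgG were the lowest of all 12, and on each coating both TKO libraries lay below both NT libraries. Against NT cells the difference was -0.56 ± 0.11 on IgG (limma adjusted p = 0.0042) and -0.34 ± 0.11 on DLL4 (adjusted p = 0.049). The call on DLL4 was lost without any 1 of the 4 libraries (adjusted p up to 0.24). MDM2 rose by 0.47 ± 0.11 on DLL4 in TKO cells (adjusted p = 0.034, up to 0.23 with 1 library left out), and differed by -0.07 in NKO and 0.25 in NT cells (adjusted p = 0.94 and 0.17). Of its exonic bases 9.21% lie in exons of other genes, and 19.5% of the 31-base words of its transcripts also occur in transcripts of other genes, so part of its reads could be shared.

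PPM1D, a phosphatase that switches off p53 and its activating kinases, ranged between 5.21 and 10.6 TPM and passed the test in no comparison. CCNG1, cyclin G1, which recruits a phosphatase to MDM2, had 52.8 and 54.6 TPM in TKO cells on DLL4 against 41.1 and 40.1 TPM on IgG, 61.0 and 65.3 TPM on DLL4 against 47.0 and 52.5 TPM on IgG in NKO cells, and 61.5 and 65.7 TPM on DLL4 against 57.2 and 41.1 TPM on IgG in NT cells. It passed the test for the average over lines (0.37 ± 0.08, limma adjusted p = 0.0059) and in no single line.

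PLK2 had the largest DLL4 response among the genes of growth arrest, and of all 34 genes it alone rose in each line. PLK2 is a polo-like kinase that is induced by p53 and acts at the start of the cell cycle. It had 228 and 215 TPM in TKO cells on DLL4 against 67.4 and 67.6 TPM on IgG, 162 and 211 TPM on DLL4 against 94.0 and 98.7 TPM on IgG in NKO cells, and 192 and 181 TPM on DLL4 against 83.0 and 74.0 TPM on IgG in NT cells. All 6 DLL4 libraries exceeded all 6 IgG libraries. The difference was 1.70 ± 0.11 in TKO cells (3.24-fold on the TPM + 1 scale, limma adjusted p = 1.27e-05), 0.93 ± 0.11 in NKO cells (1.91-fold, adjusted p = 0.0027) and 1.24 ± 0.11 in NT cells (2.36-fold, adjusted p = 4.88e-05). The difference between the TKO and NT responses was 0.46 ± 0.16 (adjusted p = 0.21) and that between the NKO and NT responses -0.31 ± 0.16 (adjusted p = 0.46).

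BTG2, an antiproliferative factor that recruits the enzymes that shorten poly(A) tails, differed between lines and coatings. It had 4.32 and 4.52 TPM in TKO cells on DLL4 against 1.85 and 2.87 TPM on IgG, 8.26 and 10.2 TPM on DLL4 against 7.48 and 7.30 TPM on IgG in NKO cells, and 7.79 and 7.11 TPM on DLL4 against 4.62 and 4.19 TPM on IgG in NT cells. The TKO libraries on IgG were the lowest of the 12 and the NKO libraries on DLL4 the highest. BTG2 rose on DLL4 by 0.71 ± 0.17 in TKO cells (limma adjusted p = 0.029) and 0.64 ± 0.17 in NT cells (adjusted p = 0.024), and differed by 0.28 in NKO cells (adjusted p = 0.67). It was lower in TKO than in NT cells by 0.70 ± 0.17 on IgG and 0.64 ± 0.17 on DLL4 (adjusted p = 0.0090 and 0.014), and higher in NKO than in NT cells by 0.63 ± 0.17 on IgG (adjusted p = 0.033). Each of these 5 calls was lost without at least 2 of its 4 libraries.

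GADD45A, a stress protein that holds cells before mitosis and takes part in repair, had a higher level in NT cells than in either targeted line. It had 51.7 and 49.8 TPM in TKO cells on DLL4 against 51.2 and 50.7 TPM on IgG, 59.1 and 57.0 TPM on DLL4 against 58.7 and 54.9 TPM on IgG in NKO cells, and 95.9 and 85.1 TPM on DLL4 against 70.4 and 73.0 TPM on IgG in NT cells. All 4 NT libraries were above all 8 libraries of the targeted lines. Against NT cells, GADD45A was lower in TKO cells by 0.48 ± 0.08 on IgG and 0.82 ± 0.08 on DLL4 (limma adjusted p = 0.0013 and 2.62e-05), and lower in NKO cells by 0.33 ± 0.08 and 0.63 ± 0.08 (adjusted p = 0.026 and 0.00037). The difference between DLL4 and IgG was 0.33 ± 0.08 in NT cells (adjusted p = 0.020, up to 0.16 with 1 library left out), -0.01 in TKO and 0.03 in NKO cells. The differences between responses, -0.34 ± 0.12 for TKO and -0.30 ± 0.12 for NKO cells, did not pass the test (adjusted p = 0.20 and 0.30). The NKO call on IgG was lost without any 1 of its 4 libraries (adjusted p up to 0.14).

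The other genes of growth arrest were called in no single line. PLK3, a further polo-like kinase, had 52.98 and 52.7 TPM in TKO cells on DLL4 against 44.7 and 35.9 TPM on IgG, 39.1 and 42.2 TPM on DLL4 against 37.6 and 38.9 TPM on IgG in NKO cells, and 46.1 and 41.0 TPM on DLL4 against 32.7 and 39.5 TPM on IgG in NT cells. It was called for the average over lines (0.25 ± 0.07, limma adjusted p = 0.031) and in no single line. FBXW7, the ubiquitin ligase subunit that marks cyclin E and the cleaved Notch receptor, ranged between 5.89 and 10.2 TPM and was called in no comparison.

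**Figure D4:**
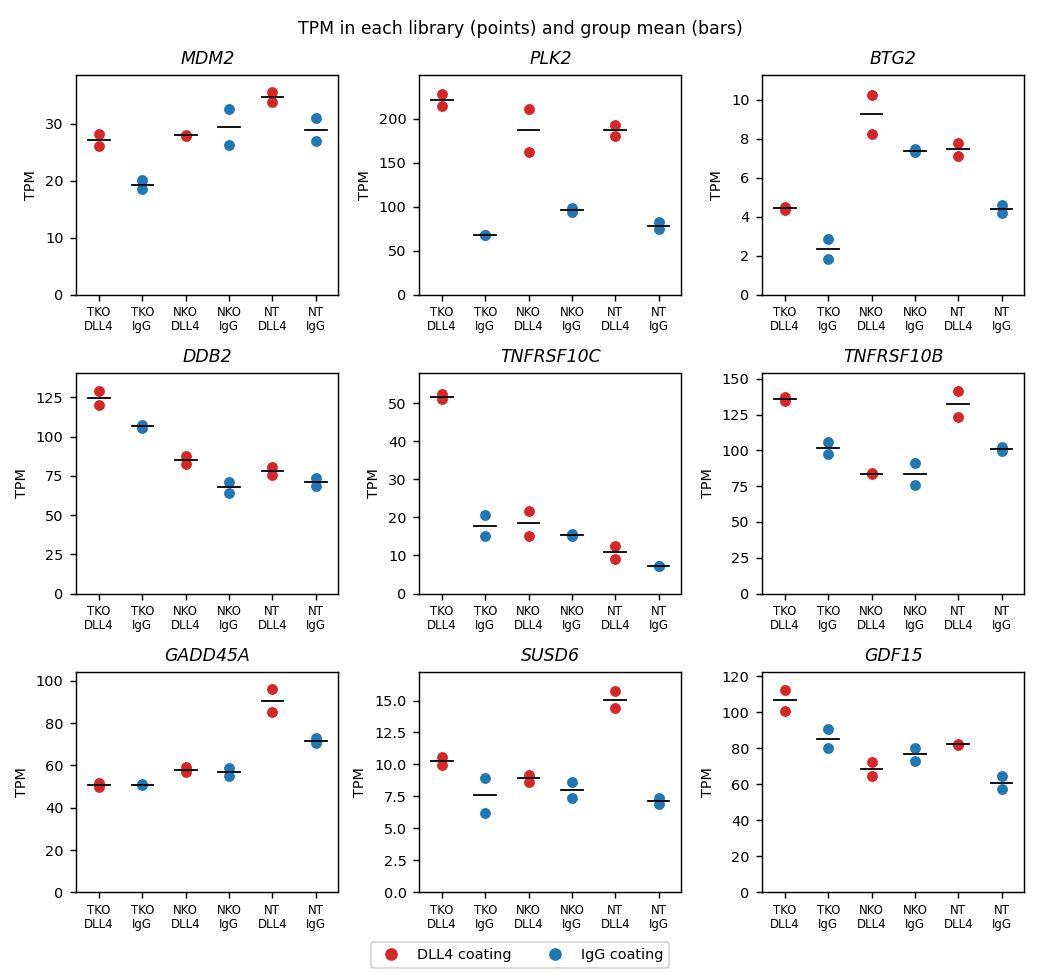
TPM of 9 of the p53 target genes in every library (points) with the group mean (bars), for TKO, NKO and NT cells on DLL4 (red) and IgG (blue). The PLK2 points on DLL4 all lie above those on IgG, the DDB2 points of TKO cells above those of the other lines, and the TNFRSF10C points of TKO cells on DLL4 above 50 TPM.

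The 11 genes grouped here around the mitochondrial route to apoptosis include several with other roles, such as CYFIP2, SUSD6 and PHLDA3. With DLL4, 2 of them rose (TP53I3 and PHLDA3) and 1 fell (PMAIP1) in TKO cells. In NKO cells 0 were called (3 at an unadjusted p under 0.05, against 1221 of all 13299 genes). In NT cells 2 rose (TP53INP1 and SUSD6) and 1 fell (AEN). Of all genes tested, 4.11% rose and 2.41% fell in TKO cells, and 7.68% rose and 8.34% fell in NT cells, so that 1 fall among 11 genes is near the share of all genes in NT cells. BAX, which makes the pore in the outer mitochondrial membrane, was the most abundant of the 34 genes at 269 to 384 TPM, and BBC3 (PUMA), an activator of BAX, ranged between 10.9 and 15.9 TPM. APAF1, the scaffold on which caspase-9 is activated, ranged between 4.85 and 7.52 TPM and CYFIP2, a subunit of the actin-regulating WAVE complex, between 0.851 and 2.52 TPM. None of these 4 genes was called in any comparison, which does not show that they did not change. Exons of other genes on the opposite strand cover 9.48% of the exonic bases of APAF1 and 5.95% of those of CYFIP2.

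PMAIP1 (NOXA), a further activator of this route, was lower on DLL4. It had 26.6 and 23.6 TPM in TKO cells on DLL4 against 42.5 and 42.0 TPM on IgG, 26.3 and 18.3 TPM on DLL4 against 34.9 and 24.6 TPM on IgG in NKO cells, and 22.4 and 21.3 TPM on DLL4 against 32.9 and 32.4 TPM on IgG in NT cells. The coatings did not overlap in TKO and NT cells and overlapped in NKO cells. PMAIP1 fell by 0.73 ± 0.17 in TKO cells (limma adjusted p = 0.031, up to 0.21 with 1 library left out), and differed by -0.40 in NKO and -0.56 in NT cells (adjusted p = 0.51 and 0.051). The average over lines was -0.57 ± 0.10 (adjusted p = 0.0030).

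AEN, a nuclease that cuts DNA in apoptosis and whose promoter window holds a p53 element, was lower on DLL4 too. It had 24.5 and 23.2 TPM in TKO cells on DLL4 against 25.3 and 28.5 TPM on IgG, 29.1 and 25.1 TPM on DLL4 against 36.4 and 31.9 TPM on IgG in NKO cells, and 22.3 and 19.0 TPM on DLL4 against 29.2 and 30.7 TPM on IgG in NT cells. In each line both DLL4 libraries were below both IgG libraries. AEN fell in NT cells by 0.52 ± 0.12 (limma adjusted p = 0.013, up to 0.11 with 1 library left out) and in the average over lines by 0.34 ± 0.07 (adjusted p = 0.0059). On DLL4 it was higher in NKO than in NT cells by 0.38 ± 0.12 (adjusted p = 0.044, up to 0.28 with 1 library left out).

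Other genes of this group rose. TP53INP1, which binds p53 and the kinases that phosphorylate it, had 5.18 and 5.52 TPM in TKO cells on DLL4 against 2.19 and 3.65 TPM on IgG, 4.44 and 6.69 TPM on DLL4 against 3.37 and 3.54 TPM on IgG in NKO cells, and 8.29 and 7.14 TPM on DLL4 against 3.02 and 2.33 TPM on IgG in NT cells. All 6 DLL4 libraries exceeded all 6 IgG libraries. TP53INP1 rose by 1.25 ± 0.21 in NT cells (limma adjusted p = 0.0031) and by 0.84 ± 0.12 in the average over lines (adjusted p = 0.00092), and differed by 0.72 in TKO and 0.54 in NKO cells (adjusted p = 0.077 and 0.46).

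SUSD6, a membrane protein with a sushi domain that slows growth when overproduced, had 9.93 and 10.6 TPM in TKO cells on DLL4 against 6.24 and 8.95 TPM on IgG, 8.66 and 9.18 TPM on DLL4 against 8.65 and 7.37 TPM on IgG in NKO cells, and 15.8 and 14.4 TPM on DLL4 against 6.88 and 7.37 TPM on IgG in NT cells. The NT libraries on DLL4 stood above all others. SUSD6 rose by 0.98 ± 0.15 in NT cells (limma adjusted p = 0.0018), and differed by 0.41 in TKO and 0.14 in NKO cells (adjusted p = 0.17 and 0.87). On DLL4 it was lower than in NT cells by 0.51 ± 0.15 in TKO cells (adjusted p = 0.029) and 0.70 ± 0.15 in NKO cells (adjusted p = 0.0090). The differences between responses, -0.58 ± 0.22 for TKO and -0.84 ± 0.22 for NKO cells, did not pass the test (adjusted p = 0.24 and 0.12). With 1 library left out the TKO call on DLL4 was lost in all 4 cases, and the NKO call without NT library 2 or NKO library 1.

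TP53I3, a quinone reductase that produces reactive oxygen, was lower in both targeted lines. It had 94.3 and 99.3 TPM in TKO cells on DLL4 against 74.2 and 74.5 TPM on IgG, 84.3 and 86.5 TPM on DLL4 against 74.4 and 85.8 TPM on IgG in NKO cells, and 136 and 127 TPM on DLL4 against 109.5 and 110.2 TPM on IgG in NT cells. All 4 NT libraries were above all 8 libraries of the targeted lines. Against NT cells TP53I3 was lower in TKO cells by 0.56 ± 0.08 on IgG and 0.43 ± 0.08 on DLL4 (limma adjusted p = 0.00051 and 0.0022) and lower in NKO cells by 0.45 ± 0.08 and 0.61 ± 0.08 (adjusted p = 0.0047 and 0.00043). These 4 calls held under every alternative setting. TP53I3 rose with DLL4 by 0.38 ± 0.08 in TKO cells (adjusted p = 0.020, up to 0.17 with 1 library left out), and differed by 0.09 in NKO and 0.25 in NT cells (adjusted p = 0.81 and 0.060).

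The other 2 called genes of this group restrain cell death or survival signals. TRIAP1, which moves lipids between mitochondrial membranes and inhibits caspase activation, had 52.7 and 55.1 TPM in TKO cells on DLL4 against 48.8 and 45.5 TPM on IgG, 74.1 and 76.7 TPM and 65.5 and 69.7 TPM in NKO cells on DLL4 and on IgG, and 67.9 and 62.8 TPM and 70.5 and 64.7 TPM in NT cells on DLL4 and on IgG. The TKO libraries were the lowest 4. TRIAP1 was lower in TKO than in NT cells by 0.51 ± 0.08 on IgG (limma adjusted p = 0.0010) and 0.27 ± 0.08 on DLL4 (adjusted p = 0.030, up to 0.19 with 1 library left out).

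PHLDA3, which blocks the survival kinase AKT from reaching the membrane, had 73.9 and 68.3 TPM in TKO cells on DLL4 against 55.0 and 47.5 TPM on IgG, 77.9 and 75.2 TPM on DLL4 against 67.3 and 73.7 TPM on IgG in NKO cells, and 87.4 and 84.3 TPM on DLL4 against 65.7 and 80.7 TPM on IgG in NT cells. The TKO libraries on IgG were the lowest of the 12. It rose by 0.47 ± 0.11 on DLL4 in TKO cells (limma adjusted p = 0.029, up to 0.20 with 1 library left out) and was lower in TKO than in NT cells on IgG by 0.50 ± 0.11 (adjusted p = 0.0059, up to 0.058). The exons of another gene on the same strand cover 19.1% of its exonic bases.

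Among the receptors, TNFRSF10C showed the largest difference of any of the 34 genes. It encodes a decoy receptor for the death ligand TRAIL that is held by a lipid anchor and has no death domain. TNFRSF10C had 52.3 and 51.2 TPM in TKO cells on DLL4 against 15.1 and 20.5 TPM on IgG, 15.2 and 21.7 TPM on DLL4 against 15.2 and 15.6 TPM on IgG in NKO cells, and 12.5 and 9.03 TPM on DLL4 against 7.23 and 7.12 TPM on IgG in NT cells. The TKO libraries on DLL4 lay far above all others, and all 8 libraries of the targeted lines lay above the 4 NT libraries. Its level rose on DLL4 by 1.50 ± 0.19 in TKO cells (2.84-fold on the TPM + 1 scale, limma adjusted p = 0.00084), and the differences in NKO and NT cells were 0.23 and 0.51 (adjusted p = 0.80 and 0.095). The TKO response exceeded the NT response by 0.99 ± 0.27, which did not pass the test (adjusted p = 0.12).

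Against NT cells TNFRSF10C was higher in TKO cells by 1.18 ± 0.19 on IgG (limma adjusted p = 0.00092) and 2.18 ± 0.19 on DLL4 (4.53-fold, adjusted p = 9.72e-06). In NKO cells it was higher by 1.00 ± 0.19 on IgG (adjusted p = 0.0063) and 0.72 ± 0.19 on DLL4 (adjusted p = 0.021, up to 0.17 with 1 library left out). Exons of other genes on the same strand cover 39.3% of its exonic bases. AC107959.5, one of them, was listed at small amounts, 0.179 to 2.14 TPM. AC107959.4, the one with the largest overlap, was not found among the symbols of the expression table. How the reads were divided is therefore uncertain.

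The other receptors differed from it. TNFRSF10B is a TRAIL receptor that carries a death domain. It had 137 and 134 TPM in TKO cells on DLL4 against 97.6 and 106 TPM on IgG. In NKO cells it was at 83.2 and 84.4 TPM on DLL4 against 91.1 and 75.8 TPM on IgG. In NT cells it was at 142 and 123 TPM on DLL4 against 99.5 and 103 TPM on IgG. The coatings did not overlap in TKO and NT cells and overlapped in NKO cells. It rose on DLL4 by 0.41 ± 0.10 in TKO cells and 0.38 ± 0.10 in NT cells (limma adjusted p = 0.031 and 0.024), and differed by 0.01 in NKO cells (adjusted p = 0.997). With 1 library left out these 2 adjusted p rose to as much as 0.18 and 0.17. On DLL4 it was lower in NKO than in NT cells by 0.65 ± 0.10 (adjusted p = 0.0010).

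TNFRSF10D, a TRAIL decoy with a truncated death domain, had 28.2 and 28.9 TPM in TKO cells on DLL4 against 30.9 and 36.4 TPM on IgG, 39.5 and 37.7 TPM on DLL4 against 39.8 and 37.1 TPM on IgG in NKO cells, and 52.95 and 46.2 TPM on DLL4 against 37.7 and 35.8 TPM on IgG in NT cells. The NT libraries on DLL4 were the highest and the TKO libraries on DLL4 the lowest. It rose on DLL4 in NT cells by 0.42 ± 0.10 (limma adjusted p = 0.019, up to 0.14 with 1 library left out). On DLL4 it was lower than in NT cells by 0.77 ± 0.10 in TKO cells (adjusted p = 0.00021) and by 0.35 ± 0.10 in NKO cells (adjusted p = 0.033, up to 0.20). FAS, the receptor of the death ligand FASLG, ranged between 5.18 and 8.80 TPM and was called in no comparison. ACTA2, which overlaps 8.93% of its exonic bases on the opposite strand, was at 9.78 to 29.9 TPM.

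The 3 TRAIL receptor genes are neighbours on chromosome 8, where other genes also differed in NKO cells. The 48 to 49 tested genes within 5 Mb of them had a median difference between NKO and NT cells of -0.46 on IgG and -0.54 to -0.55 on DLL4, and of -0.0044 to 0.01 between TKO and NT cells. TNFRSF10B and TNFRSF10D were lower in NKO cells on DLL4 as their neighbours were, and TNFRSF10C was higher. On IgG TNFRSF10D was not lower, at 39.8 and 37.1 TPM in NKO cells against 37.7 and 35.8 TPM in NT cells. There TNFRSF10B, at 91.1 and 75.8 TPM in NKO against 99.5 and 103 TPM in NT cells, was not called, and TNFRSF10C was higher. Whether the regional difference has a part in these 3 genes was not tested.

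Of the repair genes, DDB2 was the one that differed. DDB2 finds ultraviolet damage in chromatin for nucleotide excision repair. It had 121 and 129 TPM in TKO cells on DLL4 against 106 and 108 TPM on IgG, 82.7 and 87.4 TPM on DLL4 against 64.2 and 71.2 TPM on IgG in NKO cells, and 80.9 and 75.6 TPM on DLL4 against 73.8 and 68.3 TPM on IgG in NT cells. All 4 TKO libraries were above all 8 others. Against NT cells DDB2 was higher in TKO cells by 0.58 ± 0.08 on IgG and 0.67 ± 0.08 on DLL4 (limma adjusted p = 0.00042 and 0.00013), and both calls held under every alternative setting. The average response to DLL4 was 0.23 ± 0.05 (adjusted p = 0.0067), with no call in a single line.

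The 43 tested genes within 5 Mb of DDB2 on chromosome 11 had a median difference between TKO and NT cells of 0.45 on IgG and 0.51 on DLL4, near the differences of DDB2 itself. The 24 such genes within 5 Mb of PMAIP1 on chromosome 18 had medians of 0.53 and 0.45. The differences of PMAIP1 itself were 0.36 and 0.19, which did not pass the test. Around the genes other than DDB2, PMAIP1 and the TRAIL receptors, such medians lay between -0.17 and 0.15 for TKO cells and between -0.06 and 0.22 for NKO cells. The part of these regional differences in the levels of DDB2 and PMAIP1 was not tested. DDB2 was higher and MDM2 lower in TKO than in NT cells. The windows of both hold a p53 element, and its part in these levels was not tested.

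**Figure D5:**
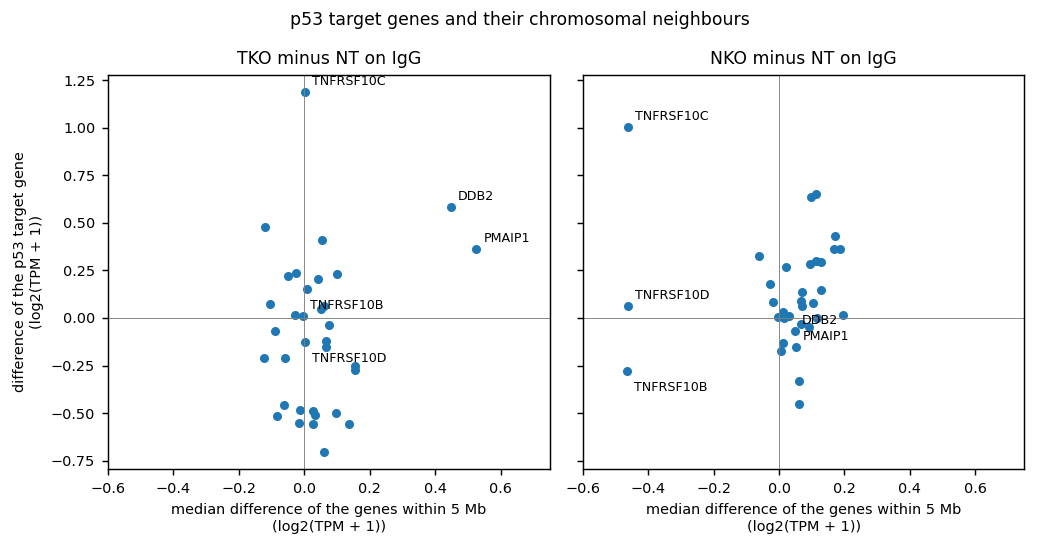
Difference of each p53 target gene from NT cells on IgG (vertical) against the median difference of the tested genes within 5 Mb of it (horizontal), for TKO cells (left) and NKO cells (right), both on the log2(TPM + 1) scale. DDB2 and PMAIP1 stand to the right in TKO cells, and the 3 TRAIL receptor genes to the left in NKO cells.

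XPC, which starts nucleotide excision repair by binding distorted DNA, ranged between 23.4 and 29.03 TPM. POLH, a polymerase that copies past ultraviolet lesions, ranged between 7.49 and 13.4 TPM, and RRM2B, the p53-induced subunit of ribonucleotide reductase, between 18.0 and 31.2 TPM. These 3 genes were called in no comparison. Exons of other genes on the opposite strand cover 30.4% of the exonic bases of XPC, and the sources used here do not say whether strand was used in counting.

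GDF15 led the group of metabolic, secreted and other targets in level and was higher in TKO cells. It encodes a secreted stress hormone of the TGF-beta family. GDF15 had 113 and 101 TPM in TKO cells on DLL4 against 90.7 and 80.1 TPM on IgG, 64.8 and 72.5 TPM on DLL4 against 72.9 and 80.3 TPM on IgG in NKO cells, and 82.5 and 82.1 TPM on DLL4 against 57.4 and 64.5 TPM on IgG in NT cells. DLL4 libraries were above IgG libraries in TKO and NT cells and below them in NKO cells. It rose on DLL4 in NT cells by 0.43 ± 0.10 (limma adjusted p = 0.016, up to 0.11 with 1 library left out), and differed by 0.32 in TKO and -0.16 in NKO cells (adjusted p = 0.098 and 0.71). It was higher in TKO than in NT cells by 0.48 ± 0.10 on IgG (adjusted p = 0.0048) and 0.37 ± 0.10 on DLL4 (adjusted p = 0.020, up to 0.17). The NKO response was below the NT response by 0.59 ± 0.14, which did not pass the test (adjusted p = 0.10).

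SESN1, a sestrin that holds back the growth kinase complex mTORC1, had 8.33 and 8.78 TPM in TKO cells on DLL4 against 4.53 and 6.13 TPM on IgG, 9.89 and 11.2 TPM on DLL4 against 10.1 and 9.52 TPM on IgG in NKO cells, and 12.5 and 11.2 TPM on DLL4 against 8.41 and 7.54 TPM on IgG in NT cells. The TKO libraries on IgG were the lowest. It rose on DLL4 by 0.61 ± 0.14 in TKO and 0.52 ± 0.14 in NT cells (limma adjusted p = 0.030 and 0.032) and differed by 0.09 in NKO cells (adjusted p = 0.92). It was lower in TKO than in NT cells by 0.51 ± 0.14 on IgG and 0.43 ± 0.14 on DLL4 (adjusted p = 0.021 and 0.047). Each of these 4 calls was lost without at least 3 of its 4 libraries. Exons of another gene on the opposite strand cover 7.09% of its exonic bases.

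PLXNB2, a plexin that receives semaphorin and angiogenin signals, had 46.0 and 49.6 TPM in TKO cells on DLL4 against 33.5 and 35.0 TPM on IgG, 42.0 and 54.6 TPM on DLL4 against 43.8 and 42.5 TPM on IgG in NKO cells, and 66.5 and 58.7 TPM on DLL4 against 44.9 and 50.03 TPM on IgG in NT cells. The NT libraries on DLL4 were the highest. It rose on DLL4 in TKO cells by 0.47 ± 0.12 (limma adjusted p = 0.045) and differed by 0.39 in NT cells (adjusted p = 0.050, just over the threshold). It was lower than in NT cells by 0.46 ± 0.12 on IgG and 0.38 ± 0.12 on DLL4 in TKO cells (adjusted p = 0.016 and 0.039) and by 0.38 ± 0.12 on DLL4 in NKO cells (adjusted p = 0.049). Each of these 4 calls was lost without at least 3 of its 4 libraries.

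ZMAT3, an RNA-binding protein that alters splicing, had 5.39 and 5.96 TPM in TKO cells on DLL4 against 4.43 and 5.59 TPM on IgG, 8.48 and 10.1 TPM on DLL4 against 8.58 and 7.63 TPM on IgG in NKO cells, and 9.05 and 7.25 TPM on DLL4 against 4.92 and 4.65 TPM on IgG in NT cells. The NKO libraries and the NT libraries on DLL4 stood above the rest. It rose on DLL4 in NT cells by 0.65 ± 0.15 (limma adjusted p = 0.016) and was higher in NKO than in NT cells on IgG by 0.65 ± 0.15 (adjusted p = 0.022), each lost without any of 3 of the 4 libraries. The first difference was 0.16 in TKO and 0.18 in NKO cells.

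FDXR, which passes electrons to mitochondrial steroid and iron-sulfur enzymes, had 32.6 and 31.9 TPM in TKO cells on DLL4 against 25.3 and 21.5 TPM on IgG, 33.1 and 45.5 TPM on DLL4 against 32.2 and 41.7 TPM on IgG in NKO cells, and 34.8 and 32.3 TPM on DLL4 against 34.4 and 34.9 TPM on IgG in NT cells. The TKO libraries on IgG were the lowest. TIGAR, which turns glucose use away from glycolysis, had 14.1 and 16.7 TPM in TKO cells on DLL4 against 13.5 and 14.2 TPM on IgG, 19.9 and 21.7 TPM on DLL4 against 15.8 and 19.3 TPM on IgG in NKO cells, and 17.4 and 22.2 TPM on DLL4 against 18.5 and 21.3 TPM on IgG in NT cells. Of the TKO libraries 3 held the lowest values of TIGAR, and the other lay above 1 NKO library on IgG. On IgG FDXR was lower in TKO than in NT cells by 0.55 ± 0.15 and TIGAR by 0.49 ± 0.15 (limma adjusted p = 0.021 and 0.028), each lost without any of 3 of the 4 libraries. Exons of other genes cover 45.6% of the exonic bases of TIGAR, and AC008012.1, on the same strand, was at 1.48 to 4.52 TPM. SPATA18, which acts in mitochondrial quality control, ranged between 2.50 and 5.50 TPM and was called in no comparison.

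No p53 target gene had a DLL4 response in TKO or NKO cells that differed from that in NT cells by the limma test as reported. For the difference between the TKO and NT responses 0 of the 34 genes passed, where 0.526% of all genes tested did. At an unadjusted p under 0.05 there were 7 of the 34 genes, against 2062 of all 13299. For the difference between the NKO and NT responses 0 passed, against 0.887% of all genes. Here 6 of the 34 genes, and 1715 of all 13299, had an unadjusted p under 0.05. The smallest adjusted p was 0.086 for TNFRSF10D in TKO cells (-0.64 ± 0.14) and 0.10 for GDF15 in NKO cells. TNFRSF10D was called under median-of-ratios rescaling and under quantile normalisation. The NKO response was below the NT response for 25 of the 34 genes and for 6722 of all 13299. The median was -0.20, against 0.00 for all genes. The TKO response was above the NT response for 22 of the 34 genes and for 6863 of all genes. Its median was 0.07 against 0.01. Both differences share the NT libraries. The calls in TKO and NT cells and their near absence in NKO cells are therefore not shown to be a difference in response for any single gene.

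Among genes of the p53 pathway outside the 34, CDKN1A moved with DLL4. CDKN1A, the p21 inhibitor of cell cycle kinases and the best known p53 target, had 175 and 180.4 TPM in TKO cells on DLL4 against 115 and 119.8 TPM on IgG, 169 and 193 TPM on DLL4 against 145 and 167 TPM on IgG in NKO cells, and 308 and 289.8 TPM on DLL4 against 161 and 166 TPM on IgG in NT cells. The NT libraries on DLL4 were the highest and the TKO libraries on IgG the lowest. It rose by 0.59 ± 0.09 in TKO and 0.86 ± 0.09 in NT cells (limma adjusted p = 0.0024 and 0.00011), and differed by 0.22 in NKO cells (adjusted p = 0.46). On DLL4 it was lower than in NT cells by 0.75 ± 0.09 in TKO and 0.72 ± 0.09 in NKO cells (adjusted p = 8.35e-05 and 0.00023), and on IgG by 0.48 ± 0.09 in TKO cells (adjusted p = 0.0021).

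Of 26 other p53 targets that were tested, CDKN1A included, 3 rose and 2 fell with DLL4 in TKO cells, 0 were called in NKO cells (5 at an unadjusted p under 0.05), and 6 rose and 4 fell in NT cells. These are 11.5% and 7.69% of the list in TKO cells, against 4.11% and 2.41% of all genes, and 23.1% and 15.4% in NT cells, against 7.68% and 8.34%. In NKO cells 1221 of all 13299 genes had an unadjusted p under 0.05. Of 16 cell cycle genes that p53 lowers through p21 and the DREAM repressor, 2 fell in TKO cells and 0 rose, 0 were called in NKO cells (1 at an unadjusted p under 0.05), and 9 fell in NT cells and 0 rose, where 2.41% of all genes fell in TKO and 8.34% in NT cells. In NT cells MCM2 and MCM5, subunits of the replicative helicase, fell by 1.03 and 0.80, E2F1, which drives entry into S phase, by 0.79, and CDC20, which triggers anaphase, by 0.66 (limma adjusted p = 9.21e-05, 0.00042, 0.00036 and 0.00042). On DLL4 8 of these 16 genes were higher in TKO than in NT cells and 9 in NKO than in NT cells, with 0 lower in either, against 16.1% and 11.4% of all genes higher. These comparisons share the NT libraries on DLL4 with each other and with the response above.

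Of 23 tested regulators of p53, 0 were called with DLL4 in TKO cells (2 at an unadjusted p under 0.05) and 0 in NKO cells (1 at an unadjusted p under 0.05), and 2 fell and 0 rose in NT cells. Of all 13299 genes, 2558 in TKO and 1221 in NKO cells had an unadjusted p under 0.05, and 8.34% fell in NT cells. Between TKO and NT cells on IgG, 3 of the 23 were higher and 3 lower, or 13.04% each, near the 15.2% and 12.4% of all genes. The kinases CHEK1 and ATM, which activate p53 after DNA damage, were higher by 1.20 and 1.13, and the acetyltransferase KAT5 by 0.84 (limma adjusted p = 0.00021, 0.00077 and 0.00018). TP73, which encodes a transcription factor, was lower by 1.95 (adjusted p = 0.00063). Genes near CHEK1, ATM and KAT5 were not examined, so the part of regional differences like that around DDB2 was not tested. Among the further p53 targets, PTCHD4 stood at 0.234 and 0.203 TPM in TKO cells on DLL4 against 0.299 and 0.203 TPM on IgG, against 10.5 and 8.38 TPM in NT cells on DLL4 and 5.72 and 6.20 TPM in NT cells on IgG. Its differences between TKO and NT cells were -3.09 on DLL4 and -2.48 on IgG (limma adjusted p = 3.7e-07 and 2.31e-06).

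Some of the 34 genes also answer to ATF4 and CHOP, the factors of the integrated stress response, among them GDF15, BBC3, PMAIP1 and TNFRSF10B. Of 10 tested genes of that response, 6 fell and 0 rose with DLL4 in TKO cells, 0 were called in NKO cells (3 at an unadjusted p under 0.05), and 4 fell and 2 rose in NT cells. Of all genes 2.41% fell in TKO cells, and 8.34% fell and 7.68% rose in NT cells. In NKO cells 1221 of all 13299 genes had an unadjusted p under 0.05. In TKO cells ASNS, asparagine synthetase, fell by 1.80, PSAT1, an enzyme of serine synthesis, by 1.00, and ATF4 by 0.55 (limma adjusted p = 1.48e-05, 0.00019 and 0.00084). PMAIP1 fell with DLL4 in TKO cells as these genes did, and TNFRSF10B rose. The part of the stress response in the levels of the p53 targets was not tested.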

How the data were processed

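Polyadenylated RNA of 12 TeloHAEC libraries was measured, with mRNA taken from 140 ng of total RNA per the labels. The deposited values are TPM per gene symbol (tpm), made by the authors. Per the submitters' processing notes, kallisto and edgeR were used with hg38. Versions, annotation, the summing of transcripts to symbols and the use of strand were not given in the sources used here. Library sums of TPM ranged between 974989 and 977130, and no 2 libraries were identical. The columns of NT and TKO are numbered 2 and 3 and those of NKO 1 and 2, where the labels number the libraries 1 and 2, so each group's columns were taken as its libraries and are named by column number.

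Genes with at least 1 TPM in at least 2 libraries were kept (13299 of 35587). log2(TPM + 1), with a pseudocount of 1, was fitted with limma 3.58.1 (R 4.3.3). Each of the 6 groups had its own mean, the 12 libraries shared 1 estimate of spread with a trend on level, and 10 contrasts were tested two-sided at a Benjamini-Hochberg adjusted p of 0.05 over all genes. Residual degrees of freedom were 6, and 10.8 once moderated. The script was tested on simulated data. The members and the gene lists, which were written from textbook knowledge, were chosen with earlier results of these data known, so counts over them are descriptions and no list was given a test. All 34 genes are named. Values in every library are given for MDM2, GDF15 and, in each contrast, up to 12 called members with the largest change, groups that do not overlap and 5 TPM or more on average in 1 of them, and also for CCNG1 and PLK3, which were called for the average over lines alone, and for PTCHD4. CDKN1A, TSPAN14 and NOTCH1 are named besides, and of each other list up to 4 genes with the smallest p. One gene of the list of regulators is not reported here, and the counts of that list leave it out. Overlap of exons was computed from GENCODE 29 and is given for members with over 5% of their exonic bases in exons of other genes, whose values are uncertain to that extent. Promoter windows are RefSeq's, of 300 bases. The search for TGGGAA was added after the data were seen. Neighbours are the tested protein-coding genes within 5 Mb of a gene, with the 34 genes themselves left out. The alternatives were rescaling by the median of ratios, quantile normalisation, rescaling without KPNA2P2, a pseudocount of 0.1, no low-value filter, a minimum mean of 5 TPM, the column number as a block, no variance trend, the compared libraries fitted alone, and each library left out in turn. Plots were made with matplotlib 3.10.9 (Python 3.11.15).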

Additional observations from a re-analysis of the deposited data

Results flagged for a closer look

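The DLL4 response of CDKN1A, which encodes p21, differed between NKO and NT cells by the test of the difference itself, at -0.65 ± 0.12 (limma adjusted p = 0.043). CDKN1A is not among the 34 genes. Its response was 0.22 in NKO cells (169 and 193 TPM on DLL4 against 145 and 167 TPM on IgG) and 0.86 in NT cells (308 and 289.8 TPM on DLL4 against 161 and 166 TPM on IgG). The call was lost under 10 of 17 alternative settings, with an adjusted p of up to 0.18.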

How the results depend on the processing

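No call of the 34 genes or CDKN1A changed sign under any alternative that could be computed. Over the alternatives that keep every library, 669 of 744 such repeats stayed past the threshold and 75 did not; with 1 library left out, 341 of 496 stayed and 155 did not. Of the 78 calls of the 34 genes, 37 held throughout. Without a filter on low values, the counts of called genes were 3 for DLL4 in TKO cells (10 as reported), 3 for NKO against NT on IgG (5) and 4 on DLL4 (8). Without a variance trend they were 4 for DLL4 in TKO cells and 5 for NKO against NT on DLL4. With the compared libraries alone in the fit they were 6 for DLL4 in TKO cells and 2 for NKO against NT on IgG. For the TKO response minus the NT response, median-of-ratios rescaling and quantile normalisation each gave 1 called gene, TNFRSF10D, in place of 0. The causes of these shifts were not tested. With 1 library left out, the counts, genes newly called included, ranged over 4 to 7 for DLL4 in NT cells (11), 2 to 6 in TKO cells, 1 in NKO cells, 14 to 17 for the average over lines (18), 9 to 10 and 5 to 6 for TKO against NT on IgG and DLL4 (13 and 12), 2 to 4 and 4 to 5 for NKO against NT, and 0 for both differences of responses. The lone library left in a group was then assumed to vary like the other groups.

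Same-numbered columns of NKO deviated together across the coatings (r of their deviations from the group means 0.28), and the other pairs had r of -0.00029 for NT and 0.016 for TKO across the coatings, and 0.090 and 0.070 between TKO and NT. Not every pair was over 0.1 and the labels give no shared origin, so the numbers are not taken to pair the samples. With the replicate number as a block the counts were 12 for the DLL4 response of NT cells, 10 for TKO cells and 1 for NKO cells, 18 for the average over lines, 14 and 12 for TKO against NT, 4 and 5 for NKO against NT, and 0 for both differences of responses. TP53INP1, with a mean of 4.61 TPM, drops out under the filter at 5 TPM. With TPM alone, counting error cannot be separated from other spread, and 2 libraries a group limit what can be called.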
